A study of Saccharomyces cerevisiae with 24 samples.

Results

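The large subunit of the yeast ribosome is built from proteins encoded by 81 genes in these data: every gene whose symbol is RPL with a number and an optional A or B, and the 5 genes of the acidic stalk proteins, RPP0, RPP1A, RPP1B, RPP2A and RPP2B. They are 81 of the 7036 entries counted. Membership was set by name and not by a measured value, though earlier results of these data were known at the choice. Of the 81 genes, 70 form 35 pairs of paralogs, labelled A and B, and 11 are single-copy genes. Coordinates below are those of whole genes on sacCer3. Their transcripts were measured by RNA-seq in Saccharomyces cerevisiae of strain BY4741, from total RNA of wild type cells and of cells with an rph1 deletion, each untreated or treated with rapamycin. Each of these 4 groups has 2 libraries. The labels give neither the dose nor the duration of rapamycin. They do not say that replicates were separate cultures, so p-values reflect only library-to-library spread, which may be technical. Rph1 occupancy came from chromatin immunoprecipitation (ChIP) of FLAG-tagged Rph1 in BY4741 cells labelled wild type, untreated or with rapamycin, as 1 deposited gene list per condition with no replicate values.

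Ribosomal proteins are needed in nearly equal numbers, and growing yeast devotes a large part of its transcription by RNA polymerase II to their genes. Rap1, Fhl1, Ifh1 and Sfp1 drive these genes, and the kinase complex TORC1, which rapamycin inhibits, keeps them active while nutrients are plentiful. Most of the genes survive as duplicate pairs from an ancient genome duplication, so the cell can draw the same protein, or nearly the same protein, from either copy. Rph1 is a JmjC-domain histone demethylase that acts on lysine-methylated histone H3 and also works as a DNA-binding repressor.

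Total counts were 18037199 to 24769193 per library, and all 81 genes passed the filter on low counts, which left 6169 genes for testing. Levels are in CPM, read counts per library scaled to a common size by TMM, and a log2 fold change (± SE, n = 2 libraries per group) is relative to the scaled library, so neither a change in total RNA per cell nor a change in cell number can be seen in it. RPH1 itself had 1057 to 2107 reads in the 4 wild type libraries and 30 to 82 reads in the 4 deletion libraries. How the authors counted reads that match both copies of a pair, and whether they used strand, is not given in the sources used here. Many copies are nearly identical over their coding sequence, so the level of a single copy is less certain than that of its pair.

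In untreated cells the large subunit genes held a sizeable share of the reads counted in genes. They took 11.4% and 11.9% of all counts in the untreated wild type libraries and 10.4% and 10.8% in the untreated deletion libraries. With rapamycin they took 1.96% and 1.54% in wild type and 2.91% and 2.61% in the deletion. The mean share was thus 6.66-fold lower in rapamycin-treated wild type than in untreated wild type, and 4.22-fold lower in the rapamycin-treated deletion than in untreated wild type. The 4 groups did not overlap in this share.

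Per kilobase of gene span (introns included, since no coding lengths were at hand), the highest levels in untreated wild type belonged to RPL41A at 18546 CPM per kb and RPL41B at 8741, the genes of the smallest ribosomal protein. RPL38 (7943), RPL32 (7660.1), RPL15A (7106) and the stalk gene RPP2B (7015) came next. Some of these spans are short: 78 bases for each RPL41 gene, 237 for RPL38, 333 for RPP2B, 393 for RPL32 and 615 for RPL15A. The part of span length in this ranking was not tested. The lowest were RPL43A at 3.94, RPL39 at 7.01, RPL36B at 13.3 and RPL33A at 14.1 CPM per kb. Both RPL43A and RPL39 belong to 6 genes with a mean under 50 CPM in untreated wild type before TMM scaling, with RPL22A, RPL28, RPL33A and RPL36B. RPL28 lay at this limit, with 45.4 CPM before scaling and 52.1 after it, and the other 5 were far below it. They are called the genes under 50 CPM here. Each of these 6 overlaps an annotated entry on the opposite strand (in the order just given, OPI11, BUD19, BUD28, YGL102C, YPL142C and YPL250W-A), and 8 further members over 50 CPM, among them RPL10 and RPP0, overlap one too. Reads from a gene and from its antisense neighbour cannot be told apart without strand. RPL39 had 49 and 97 reads in untreated wild type. The levels and pair ratios of the 6 genes are therefore uncertain, and the part of the overlap in them was not tested.

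Rapamycin in wild type lowered nearly every member. Of 81 genes, 80 fell, against 33.9% of all genes tested, and 1 rose, against 34.8% of all genes. The median member changed by -2.95 on the log2 scale, a 7.72-fold lower level, while the median of all genes was 0.02. All 80 that fell did so by more than 2-fold, as did 898 of all 6169 genes. Of the 80, 39 fell by more than 8-fold. In all 81 genes both rapamycin libraries lay on 1 side of both untreated libraries (40.9% of all genes were lower and 42.6% higher in this way). The largest adjusted p among the 80 was 0.000338, in edgeR's quasi-likelihood test with Benjamini-Hochberg adjustment over all genes tested.

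**Figure D1:**
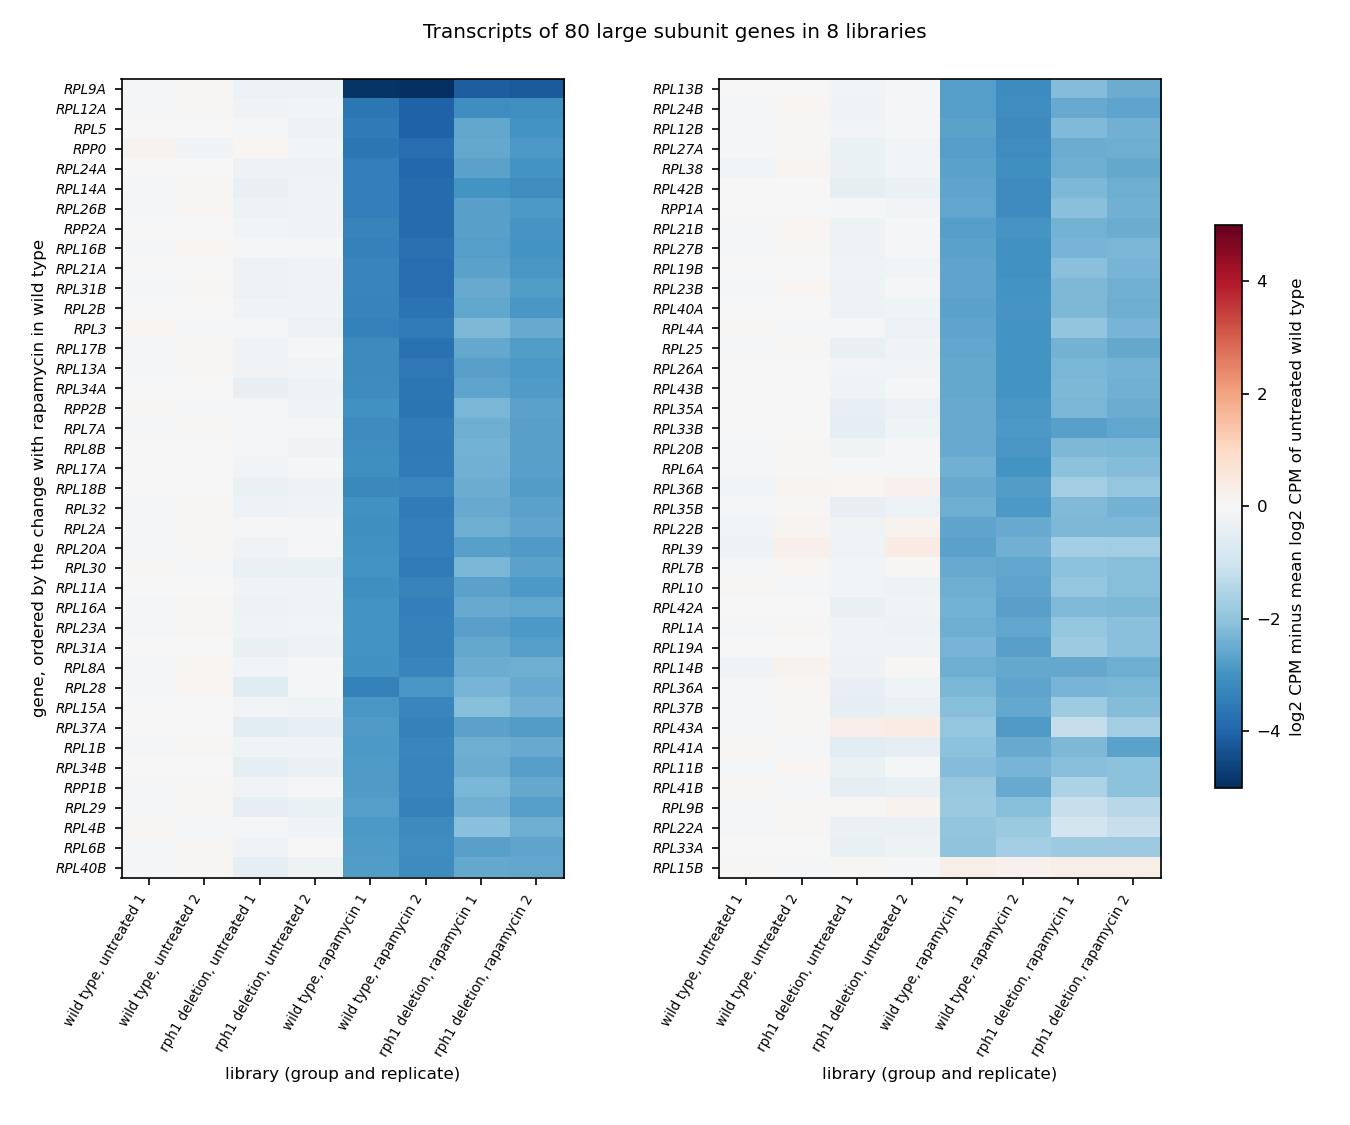
Heat map of 80 of the 81 large subunit genes (rows, ordered by their change with rapamycin in wild type, continued in the right panel) in the 8 libraries (columns). Colour is log2 CPM minus the mean log2 CPM of the untreated wild type libraries; the 4 rapamycin libraries are blue in every row but RPL15B, and paler in the deletion than in wild type in most rows.

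The stalk, which recruits the GTPase factors that drive elongation, fell most by median among the groups of role in wild type. Its 7 genes all fell, and their median change was -3.32 (log2). RPL12A (YEL054C; chromosome V, 52721 to 53218), which encodes a protein of the stalk base, had 419.7 and 466 CPM untreated and 35.9 and 26.9 CPM with rapamycin in wild type, and 394 and 406 CPM untreated and 51.3 and 52.9 CPM with rapamycin in the deletion. Its rapamycin libraries lay far below its untreated libraries in both genotypes, and its log2 fold change in wild type was -3.82 ± 0.15 (adjusted p = 1.14e-06). RPP0 (YLR340W; chromosome XII, 805887 to 806825), which encodes the protein that anchors the acidic P1 and P2 dimers, had 2218 and 1776 CPM untreated and 160.5 and 142 CPM with rapamycin in wild type, and 2138 and 1806 CPM untreated and 339.7 and 273 CPM with rapamycin in the deletion. The untreated groups of RPP0 overlapped each other, and neither rapamycin group overlapped any other group. Its change in wild type was -3.72 ± 0.19 (adjusted p = 2.21e-06). The P1 and P2 genes changed by -2.85 (RPP1A), -3.04 (RPP1B), -3.58 (RPP2A) and -3.32 (RPP2B).

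The 3 genes for the proteins that bind 5S ribosomal RNA, RPL5, RPL11A and RPL11B, fell with a median of -3.19. RPL5 (YPL131W; chromosome XVI, 303121 to 304014) had 5518 and 5320.4 CPM untreated and 463 and 332 CPM with rapamycin in wild type, and 5063 and 4508 CPM untreated and 893 and 679 CPM with rapamycin in the deletion. Untreated libraries of both genotypes were high and the wild type rapamycin libraries were the lowest, with no overlap between treatments. The log2 fold change of RPL5 in wild type was -3.77 ± 0.22 (adjusted p = 3.57e-06). RPL11A changed by -3.19 ± 0.14 and RPL11B by -2.25 ± 0.14.

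The 7 genes for proteins that reach towards the catalytic centre (RPL2A, RPL2B, RPL3, RPL4A, RPL4B, RPL10 and RPL28) fell with a median of -3.14, between -2.55 (RPL10) and -3.50 (RPL2B). The RPL10 protein joins the subunit late, in the cytoplasm. RPL3 (YOR063W; chromosome XV, 444686 to 445849), whose protein lies close to the peptidyl transferase centre, had 8040.2 and 7024 CPM untreated and 715 and 668 CPM with rapamycin in wild type, and 7159 and 6187 CPM untreated and 1566 and 1298 CPM with rapamycin in the deletion. Its deletion rapamycin libraries lay above its wild type rapamycin libraries and far below every untreated library. Its change in wild type was -3.45 ± 0.18 (adjusted p = 2.28e-06).

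The 12 genes for proteins around the polypeptide tunnel and its exit all fell, with a median of -2.81 and a range from -3.60 (RPL26B) to -2.51 (RPL19A). RPL25, whose protein docks factors that receive the nascent chain, changed by -2.79 ± 0.18. The L1 stalk genes RPL1A and RPL1B, which act where spent tRNA leaves the ribosome, had a median of -2.78, and the ubiquitin fusion genes RPL40A and RPL40B had one of -2.87. Of the 48 members outside these groups 47 fell, with a median of -2.91. The 11 single-copy genes all fell, with a median of -3.14, and the 70 paired genes had a median of -2.93. No difference between these groups was tested.

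The largest fall of all was that of RPL9A (YGL147C; chromosome VII, 227754 to 228329), 1 of a pair of genes for the protein uL6. It had 2261 and 2442 CPM untreated and 79.6 and 53.3 CPM with rapamycin in wild type, and 1925 and 1945 CPM untreated and 135 and 127 CPM with rapamycin in the deletion. No library of RPL9A with rapamycin came near an untreated one, and the change in wild type was -5.15 ± 0.21 (adjusted p = 1.3e-06). The smallest falls in wild type were those of RPL33A (-1.84 ± 0.16), RPL22A (-1.92 ± 0.15) and RPL9B (-1.99 ± 0.14), the first 2 of which are among the genes under 50 CPM.

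The 1 member that rose was RPL15B (YMR121C; chromosome XIII, 509734 to 510348), the minor copy of the pair for the protein eL15. It had 73.8 and 68.9 CPM untreated and 87.5 and 83.8 CPM with rapamycin in wild type, and 73.6 and 67.7 CPM untreated and 89.0 and 86.2 CPM with rapamycin in the deletion. The rapamycin libraries were a little above the untreated ones in both genotypes, without overlap, and the range over all 8 libraries was narrow. Its log2 fold change was 0.26 ± 0.08 in wild type (adjusted p = 0.0227) and 0.31 ± 0.08 in the deletion (adjusted p = 0.0142). In wild type the call was lost with only the libraries compared in the fit (adjusted p = 0.0875), without untreated wild type replicate 2 (0.103) and without wild type rapamycin replicate 1 (0.0994). In the deletion it was lost without untreated deletion replicate 2 (0.108) and without deletion rapamycin replicate 1 (0.0767).

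In the rph1 deletion rapamycin lowered the same 80 genes and raised RPL15B (28.7% of all genes were lower and 28.6% higher). The median member changed by -2.23, a 4.69-fold lower level. Of all 6169 genes 512 fell by more than 2-fold, and of the 80 members 79 did. The exception was RPL22A (YLR061W; chromosome XII, 263194 to 263948), with 15.7 and 17.3 CPM untreated and 4.23 and 4.53 CPM with rapamycin in wild type, and 13.2 and 13.0 CPM untreated and 8.85 and 7.47 CPM with rapamycin in the deletion. RPL22A is 1 of the genes under 50 CPM, and its deletion rapamycin libraries stood between those of untreated cells and those of rapamycin-treated wild type. It changed by -0.68 ± 0.14 in the deletion (adjusted p = 0.00397) and -1.92 ± 0.15 in wild type. Only 1 member, RPL9A at -3.88 ± 0.20, fell by more than 8-fold in the deletion, where 39 did in wild type. By role the medians in the deletion were -2.34 for the stalk, -2.57 for the 5S RNA binders, which fell most there, -2.13 around the catalytic centre, -2.18 around the tunnel, -2.02 for the L1 stalk and -2.17 for the ubiquitin fusions.

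Loss of RPH1 in untreated cells moved no member past the threshold (0 of 81, against 7.41% of all genes in either direction, 4.88% higher and 2.53% lower). The count over all genes behind that share, 457, was unstable: it was 14 with only the libraries compared in the fit, 54 and 149 without 1 or the other untreated deletion library, 238 without untreated wild type replicate 2, 273 and 272 without 1 or the other deletion rapamycin library, and 703 by DESeq2. For members it was 0 in each of these. DESeq2 also called 0 members. Of the 81 genes, 9 had an unadjusted p under 0.05 in edgeR's test, where 1497 of all 6169 genes did. The smallest adjusted p was 0.142, that of RPL37A at -0.47 ± 0.17. The estimates leaned to 1 side: 77 were below 0 and 4 above, with a median of -0.19 for members and -0.05 for all genes. In 62 members both deletion libraries lay below both wild type libraries (30.3% of all genes), and in 1 they lay above both (22.6% of all genes). RPL41A had the lowest estimate, at -0.48 ± 0.19, and RPL43A, a gene of few reads, the highest, at 0.33 ± 0.24.

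Among rapamycin-treated cells, 48 members were higher in the deletion than in wild type (14.4% of all genes were) and 0 were lower, against 13.5% of all genes. DESeq2 called 60 members higher, and 1061 of all genes. At an unadjusted p under 0.05 in edgeR's test, 62 of 81 members passed, as did 2511 of all 6169 genes. The median was 0.58, 79 estimates were above 0, and in 73 members both deletion libraries exceeded both wild type libraries (34.4% of all genes). The 8 exceptions were RPL14B, RPL15B, RPL33A, RPL33B, RPL36A, RPL37B, RPL41A and RPL41B. The difference exceeded 2-fold in RPL3 (1.05 ± 0.16, adjusted p = 0.00353) and RPP0 (1.02 ± 0.17, adjusted p = 0.00454), and these 2 calls held without any single library.

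By role, the test called 7 of 7 stalk genes higher in the deletion with rapamycin, 6 of 7 around the catalytic centre, 2 of 2 of the L1 stalk, 2 of 3 of the 5S RNA binders, 7 of 12 around the tunnel, 1 of 2 ubiquitin fusions and 23 of the other 48. RPL28 was the member around the catalytic centre that was not called (0.71 ± 0.24, adjusted p = 0.0592), and DESeq2 called it (adjusted p = 0.0110). RPL9A (0.98 ± 0.18) and RPL5 (0.99 ± 0.20) had the next largest values, and RPL41A the lowest at -0.19 ± 0.19. With deletion rapamycin replicate 1 left out, RPL5 was no longer called (adjusted p = 0.0731).

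The count in this comparison depended on single libraries. Leaving out deletion rapamycin replicate 1 gave 6 calls. Leaving out wild type rapamycin replicate 2 gave 14, and leaving out its replicate 1 gave 66. Without deletion rapamycin replicate 1 the members' share called higher was near that of all genes, and without any other library it was above that share. The members' median difference was 0.49 without deletion rapamycin replicate 1. It was 0.41 without wild type rapamycin replicate 2 and 0.83 without wild type rapamycin replicate 1. The replicates with rapamycin differed in the members' levels. Replicate 1 was higher than replicate 2 in 76 of 81 members in wild type with rapamycin and in 71 of 81 in the deletion with rapamycin. The median log2 difference, replicate 1 minus replicate 2, was 0.38 and 0.21. Untreated, replicate 2 was the higher in 61 members in wild type and in 64 in the deletion, with smaller medians (-0.09 and -0.08). With 2 libraries a group, which of them is atypical cannot be told. The part of this spread in the result was not tested beyond leaving out each library.

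The interaction asks whether the rapamycin change differed between genotypes. It was above 0 in all 81 members, so every gene fell less, or in RPL15B rose no less, in the deletion by its estimate. The test called 29 members higher (7.04% of all genes) and 0 lower (6.08%), with adjusted p between 0.0109 and 0.0489. The median was 0.77 for members and 0.01 for all genes, and 10 of the 29 called members had more than a 2-fold difference. At an unadjusted p under 0.05, 69 of 81 members passed, as did 1858 of all 6169 genes. Of the roles, 3 of 7 stalk genes, 4 of 7 around the catalytic centre, 4 of 12 around the tunnel, 2 of 2 of the L1 stalk and 1 of 3 of the 5S RNA binders were called, with 0 of 2 ubiquitin fusions. Of the single-copy genes 6 of 11 were called, and of the paired genes 23 of 70.

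**Figure D2:**
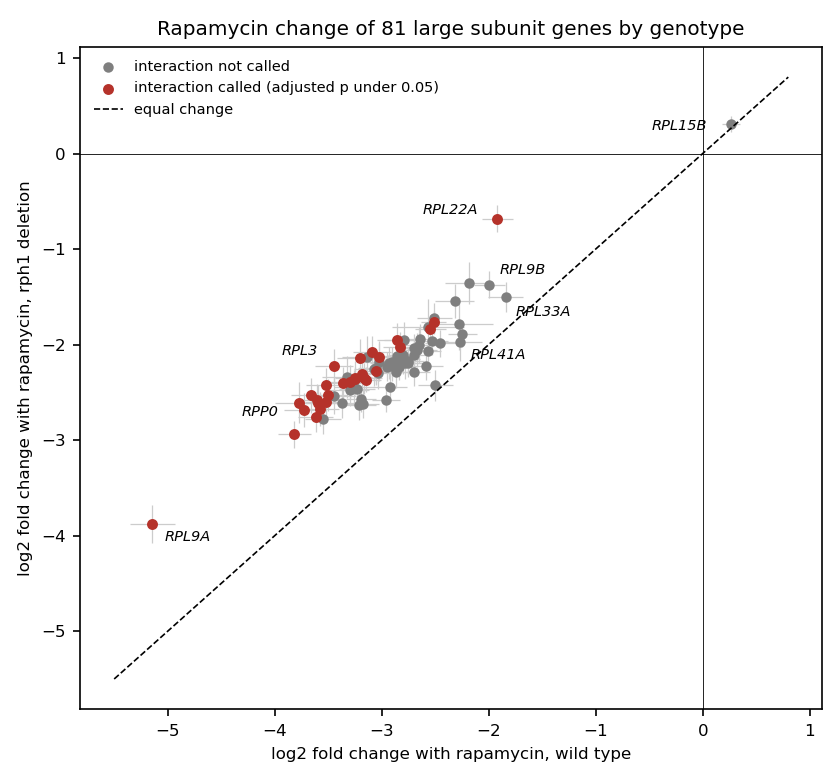
Each point is 1 of 81 large subunit genes, placed by its log2 fold change with rapamycin in wild type (x axis) and in the rph1 deletion (y axis), with bars for the SE and a dashed line for equal change. All points lie above the line, RPL15B by 0.05 only, and the 29 genes called for the interaction are red.

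The largest interaction values were those of RPL9A (1.26 ± 0.25, adjusted p = 0.019), RPL22A (1.24 ± 0.20, 0.0109), RPL3 (1.23 ± 0.23, 0.0159) and RPL5 (1.16 ± 0.28, 0.0354). RPP0 followed among the stalk genes at 1.04 ± 0.24, and RPL30, whose protein binds its own transcript, had 1.07 ± 0.27. The smallest were RPL15B (0.05 ± 0.12), RPL14B (0.07 ± 0.22), RPL41A (0.29 ± 0.27) and RPL33A (0.34 ± 0.23), none of them called. RPL14A was called at 0.86 ± 0.21, but the difference between the RPL14 copies itself did not pass the threshold (limma, 0.80 ± 0.21, adjusted p = 0.0567; without wild type rapamycin replicate 1 it passed, at 0.0487). RPL14B had 514 and 661 CPM untreated and 108 and 100.1 CPM with rapamycin in wild type, and 489.7 and 615 CPM untreated and 98.6 and 107 CPM with rapamycin in the deletion. Its rapamycin libraries had about the same level in both genotypes.

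The number of interaction calls also moved with single libraries. It was 0 without deletion rapamycin replicate 1, 2 without wild type rapamycin replicate 2 or untreated deletion replicate 1, 3 without untreated deletion replicate 2 or deletion rapamycin replicate 2, 5 without untreated wild type replicate 2 and 20 without untreated wild type replicate 1. It was 59 without wild type rapamycin replicate 1 and 63 by DESeq2. The median stayed above 0 under every one of these, between 0.56 and 0.98. In most fits without 1 library, fewer genes were called in all and the members' share called higher was near that of all genes. DESeq2 called 644 of all genes higher, against 434 in the main fit. RPL22A lost its call only without deletion rapamycin replicate 1 (adjusted p = 0.0547), and RPL3 without that library (0.0770), untreated deletion replicate 2 (0.0644) or wild type rapamycin replicate 2 (0.0551). RPL9A lost it without either untreated deletion library (0.0697 and 0.0574) or either deletion rapamycin library (0.0895 and 0.0607). RPL5 kept it only without wild type rapamycin replicate 1, with an adjusted p of 0.0531 to 0.138 without any other library. RPP0 kept it only without an untreated wild type library, with 0.0537 to 0.123 without any other.

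The 2 copies of a pair were compared by their log2 ratio within each library, which does not depend on library scaling. In untreated wild type the copies contributed unequally in some pairs, by CPM and not per length: RPL15A made up 98.4% of the pair's level, RPL7A 91.9% and RPL9A 77.5%. Of the 31 pairs without a gene under 50 CPM, 23 had an A share between 33.3% and 66.7%. With rapamycin in wild type the ratio changed in 27 of 35 pairs (limma, adjusted p under 0.05; 73.8% of the 61 A and B pairs in the whole table were called). Those 61 hold the members' 35 pairs, and nearly all the others are pairs of small subunit genes. Among the 27 called pairs of members, copy A gained on copy B in 12 and lost in 15. The median absolute difference between the copies' changes was 0.36 (log2), and it was over 0.5 in 15 pairs. By group means the more abundant copy changed in 7 pairs in wild type and in 4 of these, RPL9, RPL12, RPL20 and RPL21, in the deletion too. Of the 7, RPL20 began near equality, with copy A at 50.5% untreated. In RPL1 the wild type rapamycin libraries lay on opposite sides of equality (log2 ratios of A to B of -0.046 and 0.175). So did the deletion rapamycin libraries in RPL21 (0.022 and -0.094).

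**Figure D3:**
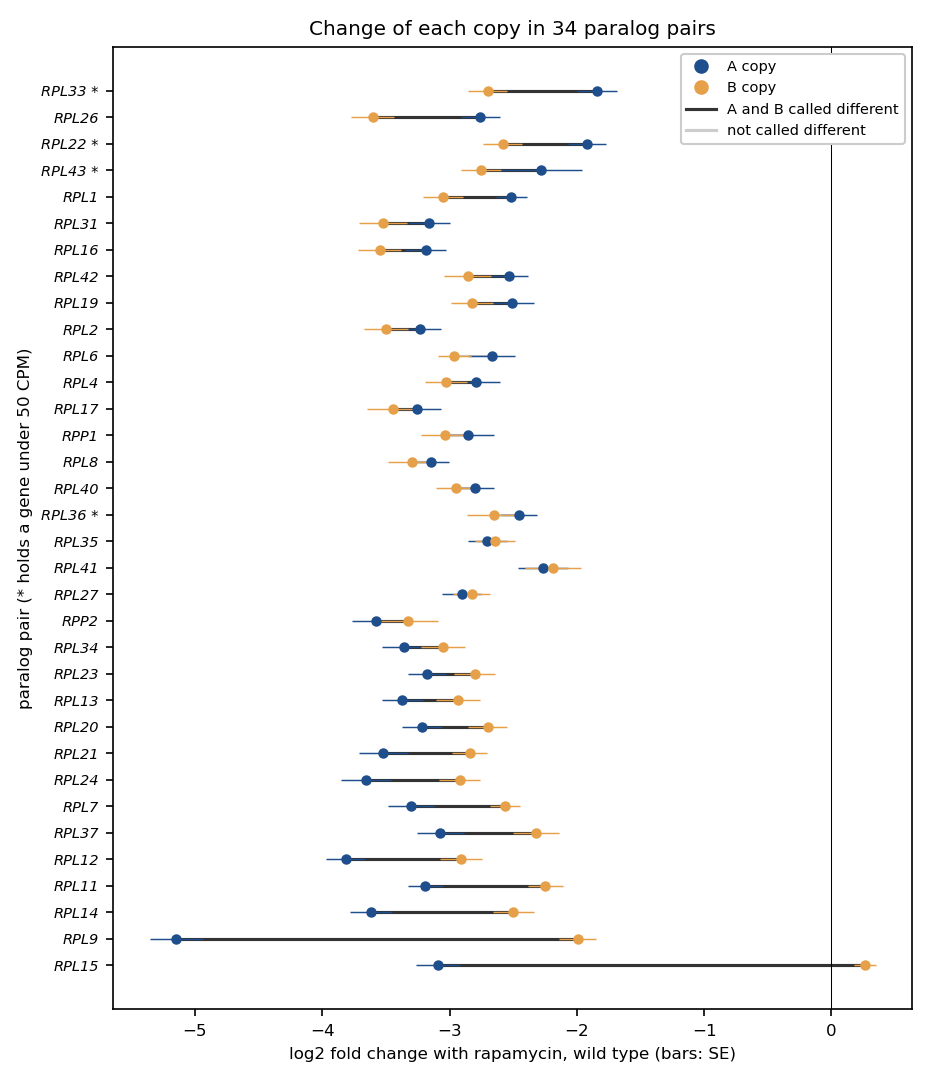
Log2 fold change with rapamycin in wild type (x axis, bars are SE) of copy A and copy B of 34 of the 35 pairs, ordered by the difference between the copies. Dark lines join copies whose changes were called different by limma; RPL15 (-3.36) and RPL9 (-3.17) lie farthest apart, followed by RPL14 (-1.14).

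The pair RPL15 had the largest difference. RPL15A had 4416 and 4325 CPM untreated and 576 and 451 CPM with rapamycin in wild type, and 3973 and 3779 CPM untreated and 1008 and 826 CPM with rapamycin in the deletion. It fell strongly in both genotypes while RPL15B rose slightly, as given above. The A minus B difference in rapamycin change was -3.36 ± 0.12 in wild type (limma, adjusted p = 2.69e-06) and -2.40 ± 0.12 in the deletion (adjusted p = 2.12e-05), and the share of RPL15A went from 98.4% to 85.6% in wild type and from 98.2% to 91.2% in the deletion.

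The pair RPL9 came next, and here the major copy changed. RPL9B had 648 and 718 CPM untreated and 189 and 154 CPM with rapamycin in wild type, and 709 and 769.8 CPM untreated and 310.1 and 261 CPM with rapamycin in the deletion. Both copies span 576 bases. RPL9B was below RPL9A in every untreated library and above it in every rapamycin library. The A minus B difference was -3.17 ± 0.11 in wild type (limma, adjusted p = 2.69e-06) and -2.51 ± 0.11 in the deletion (adjusted p = 1.79e-05). The share of RPL9A went from 77.5% to 27.7% in wild type and from 72.4% to 31.6% in the deletion.

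**Figure D4:**
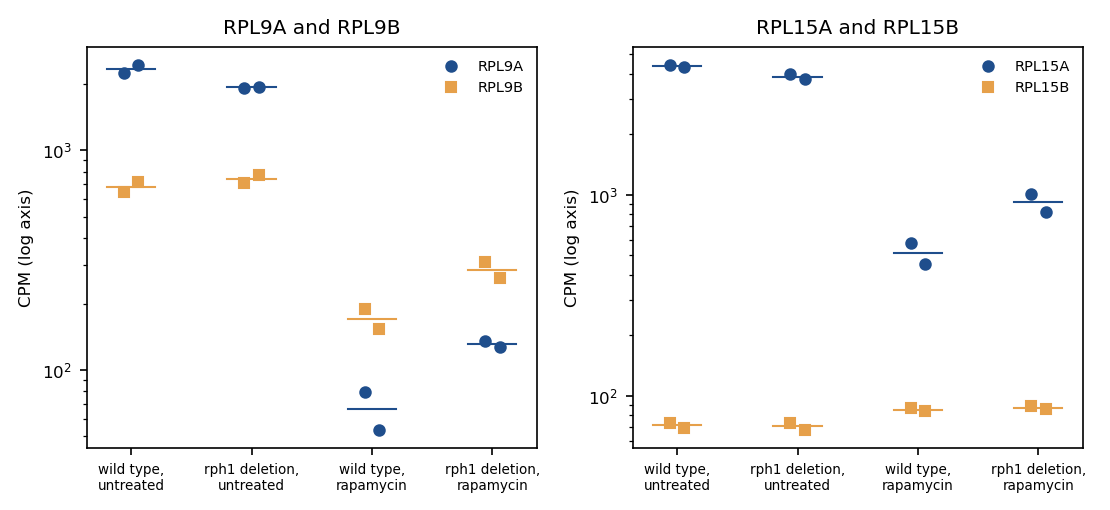
CPM (log axis) of the copies of RPL9 (left) and RPL15 (right) in the 4 groups; points are libraries and lines are group means. RPL9A drops below RPL9B with rapamycin in both genotypes, and RPL15B stays between 67.7 and 89.0 CPM while RPL15A falls.

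Smaller differences in wild type were those of RPL14 (-1.14 ± 0.15), RPL11 (-0.95 ± 0.13) and RPL12 (-0.90 ± 0.09), in each of which copy A fell more, and of RPL33 (0.88 ± 0.20), whose copy A is 1 of the genes under 50 CPM. The smallest were RPL35 (-0.06 ± 0.05, adjusted p = 0.346) and RPL41 (-0.07 ± 0.06, adjusted p = 0.345). In the deletion 22 of 35 pairs were called (67.2% of 61 pairs), 20 of them also called in wild type and all 20 in the same direction.

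The ratio's response to rapamycin differed between genotypes in 6 pairs (14.8% of 61 pairs), by the limma interaction. These were RPL15 (0.97 ± 0.17, adjusted p = 0.0216), RPL22 (0.85 ± 0.20, 0.0386), RPL9 (0.67 ± 0.15, 0.0383), RPL24 (0.65 ± 0.14, 0.0362), RPL41 (-0.56 ± 0.09, 0.0214) and RPL26 (-0.43 ± 0.09, 0.0362). In RPL41 the change of the ratio was not called in wild type, and in the deletion it was -0.62 ± 0.06 (adjusted p = 0.000326). RPL41A had 1509 and 1384 CPM untreated and 349 and 253 CPM with rapamycin in wild type, and 1011 and 1069.8 CPM untreated and 305 and 224 CPM with rapamycin in the deletion. RPL41B had 714 and 649 CPM untreated and 181 and 119 CPM with rapamycin in wild type, and 491 and 522 CPM untreated and 229 and 166 CPM with rapamycin in the deletion. The share of RPL41A was 68.0% and 67.0% in wild type, untreated and with rapamycin, and 67.3% and 57.2% in the deletion. Without single libraries the number of pairs called was between 0 and 6, and these were not always from the same 6, since RPL14 was called without wild type rapamycin replicate 1: 0 without untreated wild type replicate 2, untreated deletion replicate 2 or deletion rapamycin replicate 1, 1 without untreated deletion replicate 1, 2 without wild type rapamycin replicate 2 or deletion rapamycin replicate 2, and 3 without untreated wild type replicate 1.

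Between genotypes in untreated cells 0 of 35 pairs were called by limma (3.28% of 61; 3 at an unadjusted p under 0.05). With rapamycin 9 were called (31.1% of 61), 5 with copy A higher in the deletion relative to copy B and 4 with it lower. Leaving out deletion rapamycin replicate 1 gave 3 such pairs, and leaving out wild type rapamycin replicate 2 gave 4. In each of the pair comparisons the members' share was near that of all 61 pairs. The members are 35 of these, and nearly all the others are pairs of small subunit genes. Nearness was thus largely fixed in advance, and the 61 give no rate for paralog pairs of other kinds.

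The authors' deposited lists placed FLAG-Rph1 at nearly all of these genes in untreated cells, and at fewer of them with rapamycin. The untreated list named 80 of 81 members, against 6.61% of all entries of the count tables, and the rapamycin list named 39, against 9.79%. The member outside both lists was RPL15B. All 39 members in the rapamycin list were also in the untreated list, so 41 members were in the untreated list only. The lists hold 466 and 705 genes and give a fold enrichment per gene, whose control is not stated. They have no replicates, so their difference has no replicate check. Start and end in the lists are those of genes, and a value can be shared between genes: 21 members in the untreated list and 9 in the rapamycin list carry the value of another listed gene.

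The members' median fold enrichment in the authors' deposited lists was 56.8 untreated, where the whole list had 45.0, and 20.1 with rapamycin, where the whole list had 25.3. Of members, 60 of 80 lay at or above their list's median untreated and 8 of 39 with rapamycin. The highest in the untreated list were RPL8A (YHL033C; chromosome VIII, 35255 to 36025) at 239, RPL10 at 176, RPL3 at 141 and RPL28 at 132, and the lowest was RPL23A at 24.3. In the untreated list RPL10 has the same value as YLR076C and RPL28 the same as YGL102C. In the rapamycin list RPL40B had 141, RPL9B 100.3, RPL10 91.2 and RPL3 73.7, of which that of RPL40B is also the value of PTR2 and that of RPL10 also the value of YLR076C. There RPL12A had the members' lowest value, 7.90. Side by side, 38 of the 39 had the lower value in the rapamycin list. The exception was RPL40B (YKR094C; chromosome XI, 617996 to 618750), with 41.0 untreated and, as a value it shares with PTR2, 141 with rapamycin, so the rapamycin value cannot be assigned to RPL40B alone.

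**Figure D5:**
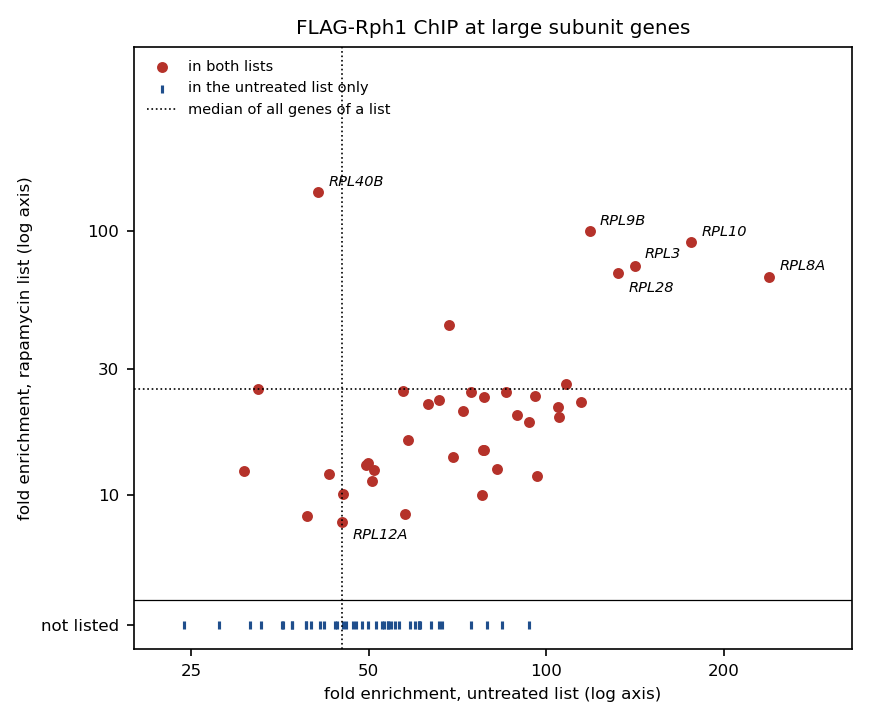
Fold enrichment of large subunit genes in the authors' FLAG-Rph1 lists, untreated (x axis) and with rapamycin (y axis), both on log axes; ticks on the bottom strip are the 41 genes in the untreated list only, and dotted lines are the medians of all genes of each list. Most genes in both lists lie below the rapamycin median, with RPL40B, RPL9B, RPL10, RPL3, RPL28 and RPL8A among the 8 at or above it.

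The rapamycin list split many pairs. It held both copies in 6 pairs, 1 copy in 17 and neither in 12, and it held 10 of the 11 single-copy genes, all but RPL38. In the pair RPL9 the copy that fell less, RPL9B, had 118 untreated and 100.3 with rapamycin, and RPL9A had 42.0 in the untreated list and was absent from the rapamycin list. In the pair RPL15 the copy that fell, RPL15A, had 108 and 26.4. Of the members in the untreated list 48.8% were also in the rapamycin list, and of the 386 other genes in the untreated list 237 were (61.4%).

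Members in the rapamycin list and members in the untreated list only had similar RNA medians, a difference that was not tested. The 39 members in the rapamycin list had a median rapamycin change in wild type of -2.95, and the 41 in the untreated list only had one of -2.96. Their median interaction values were 0.80, with 18 of 39 called higher, and 0.74, with 11 of 41 called higher (7.04% of all genes). Interaction calls depended on single libraries, as given above.

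The 57 genes of the small subunit had values close to these. All 57 fell with rapamycin in wild type (median -3.09) and in the deletion (median -2.38), 38 were higher in the deletion with rapamycin (14.4% of all genes) and 23 were called higher for the interaction (7.04% of all genes), with a median of 0.77. Without single libraries these counts went from 4, without deletion rapamycin replicate 1, to 43, without wild type rapamycin replicate 1, and from 0, without deletion rapamycin replicate 1 or untreated deletion replicate 1, to 39, without wild type rapamycin replicate 1. The authors' lists named 56 of them untreated and 31 with rapamycin. No difference between the subunits was tested.

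Factors that serve the large subunit proteins had smaller medians. The 7 dedicated chaperones and importers all fell with rapamycin in wild type (median -1.31; 33.9% of all genes fell) and 5 of 7 did in the deletion (median -0.52; 28.7% of all genes). The test called 6 of 7 higher in the deletion with rapamycin (14.4% of all genes) and 6 of 7 for the interaction (7.04%). Without deletion rapamycin replicate 1 these counts were 3 and 0, and over all single libraries left out they were 3 to 6 and 0 to 6. SYO1, which imports the products of RPL5 and RPL11 together, changed by -1.91 ± 0.13 in wild type and -1.04 ± 0.13 in the deletion, and RRB1, the chaperone of the RPL3 product, by -1.10 ± 0.11 and -0.52 ± 0.11. Beside the 33.9% of all genes that fell and the 34.8% that rose with rapamycin in wild type, 5 of 7 methyltransferases of large subunit proteins fell and 0 rose, and of 12 regulators of ribosomal protein gene transcription 6 fell and 2 rose. Among these regulators IFH1 had -0.09 ± 0.24, and 0 were called for the interaction by edgeR (1 at an unadjusted p under 0.05, and 0 to 2 called without single libraries). Of the 34 genes of the mitochondrial large subunit, 11 rose and 8 fell, shares near or below those of all genes. With rapamycin, 23 of the 34 were higher in the deletion than in wild type (14.4% of all genes) and 0 were lower (13.5%). The median of that difference was 0.48. For the interaction 2 were called higher (7.04% of all genes), with a median of 0.12. Both counts moved when single libraries were left out. In the untreated deletion 14 of the 34 were called higher, against 4.88% of all genes, but 0 and 1 were without untreated deletion replicate 1 or 2, 3 without untreated wild type replicate 2 and 9 without either deletion rapamycin library.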

How the data were processed

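The authors deposited raw read counts per gene for 8 RNA-seq libraries and lists of genes from the FLAG-Rph1 ChIP, each gene with a fold enrichment, per the file headers, untreated and with rapamycin; the control behind it and any pooling are not given in the sources used here. ChIP of RNA polymerase II was not used. The submitters' processing notes name Trimmomatic 0.38, STAR 2.5.3a, Bowtie2 2.3.4.3, featureCounts 1.6.3, DESeq2 1.24.0, MACS2 2.2.1 and the build sacCer3, without saying which tool made which file, the annotation or the use of strand. Of the 7036 counted entries, 5956 matched the RefSeq gene table, which gave symbols and spans. The design called for levels per coding length; whole gene spans were used because the table gives no coding lengths.

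The count analysis used edgeR 4.0.16 (R 4.3.3): filterByExpr with a minimum count of 10, TMM, and 1 quasi-likelihood fit (glmQLFit, glmQLFTest) with a mean per group over all 8 libraries, which share 1 estimate of the spread. SEs were derived from each comparison's F statistic. P-values were adjusted by Benjamini-Hochberg over all 6169 genes tested and called under 0.05. Log2 ratios of copy A to copy B (log2 CPM, prior count 2) were tested with limma 3.58.1 over the 61 pairs of the whole table whose symbols differ only in a final A or B. Both steps were run on simulated counts with a fixed spread and genes drawn independently. Such counts lack the shifts between replicates that members share here, so they cannot show the error rates in these libraries. DESeq2 1.42.0, other scalings, no filter, a replicate block and leaving out each library were alternatives. Intervals for single values are not given, because the spread between libraries exceeds counting error. The members, the role lists and the comparison lists were chosen with earlier results of these data known. Members named with values in every library were those with the largest and smallest falls and interactions, opposite calls, the largest and smallest pair differences, the highest and lowest levels per length and the highest fold enrichments; a few others are named as examples of their role, chosen after their values were seen. For 1 member no value is given by name, and it is left out of the heat map and, with its pair, of the plot of pairs; counts and medians over the members include it.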

Additional observations from a re-analysis of the deposited data

Results flagged for a closer look

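The rapamycin change differed between genotypes, by edgeR's interaction test with Benjamini-Hochberg adjustment, in 29 members. Among those named, the log2 change in the deletion minus that in wild type was 1.26 for RPL9A, 1.24 for RPL22A, 1.23 for RPL3, 1.16 for RPL5, 1.04 for RPP0 and 1.01 for RPL15A. It was 0.90 for RPP2A, 0.90 for RPL32, 0.88 for RPL12A, 0.86 for RPL14A, 0.78 for RPL8A and 0.71 for RPL10. The ratio of copy A to copy B differed in the same way in the pairs RPL15 (0.97), RPL9 (0.67) and RPL41 (-0.56) by limma. All 12 gene calls were lost without deletion rapamycin replicate 1, and the part of that library in them was not tested further.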

How the results depend on the processing

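No result reversed. Rapamycin lowered 80 members in both genotypes under every alternative that kept all 81 members, and 80 or 81 members were called without any single library; loss of RPH1 in untreated cells called 0 throughout. Interaction calls numbered 63 by DESeq2, 60 with a replicate block and 0 to 59 without single libraries, and calls in the deletion with rapamycin 6 to 66. Calls over all genes rose too: DESeq2 called 644 genes higher for the interaction and the block 878, against 434 in the main fit. Scaling without ribosomal protein genes gave 57 members higher and 0 lower in the deletion with rapamycin. There 61.9% of all calls were higher, against 51.7% in the main fit. In the untreated deletion that share was 65.9%, 75.4% with this scaling and 54.5% with the block. Replicates share only a number: deviations of same-numbered libraries correlated at 0.19 to 0.56 across genes, with 2 numbers. With the replicate block 81 members were called with rapamycin in each genotype, 59 in the deletion with rapamycin and 0 in the untreated deletion, where it called 1102 genes in all against 457. The RPL14 copies then differed in the interaction (0.80, adjusted p = 0.00191). It called 1 paralog pair in the untreated deletion, 14 in the deletion with rapamycin and 10 for the interaction. Without single libraries these were 0 to 1, 3 to 13 and 0 to 6, those with rapamycin in wild type 24 to 26 and in the deletion 15 to 23. In the rapamycin ChIP list 8 members lay at or above the list's median. Without the 6 genes under 50 CPM before TMM scaling, an alternative chosen after seeing the data, 46 of 75 members were higher in the deletion with rapamycin and 28 were called for the interaction. With 2 libraries a group, the spread between them limits every count; where 1 library is left, it is assumed to vary like the others.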
